A study of Homo sapiens with 8 samples.

Results

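The receptor chains, JAK kinases and ISGF3 subunits through which interferons signal were followed across 8 RNA-seq libraries of BEAS-2b cells, an immortalised human bronchial epithelial line. They were chosen by symbol and make up 9 of the 26485 genes in the deposited tables: IFNAR1, IFNAR2, IFNGR1, IFNGR2, JAK1, JAK2, TYK2, STAT2 and IRF9. The 4 groups were LY96 siRNA with house dust mite (HDM) extract in 3 libraries, LY96 siRNA with PBS in 1 library, control siRNA with HDM extract in 3 libraries and control siRNA with PBS in 1 library. LY96 encodes MD-2, the co-receptor that lets TLR4 bind lipopolysaccharide, and HDM extract is a common airway allergen preparation. All groups shared the cell line, a medium change 24 h before stimulation and a harvest 24 h after it. LY96 itself was listed at 0 in all 8 libraries, so the tables hold no check of its suppression. All groups are of 1 immortalised line, with no dose of extract or siRNA sequence stated in the labels.

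Type I interferons bind a pair of chains, IFNAR1 and IFNAR2, that carry the kinases TYK2 and JAK1. Interferon-gamma binds IFNGR1, which carries JAK1, and IFNGR2, which carries JAK2. The kinases phosphorylate STAT proteins: after type I interferon STAT2 and the DNA-binding subunit IRF9 act within ISGF3 at interferon-stimulated response elements (ISRE), and after interferon-gamma STAT dimers act at gamma-activated sites (GAS). In airway epithelium this pathway is known for antiviral defence.

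Values are FPKM (fragments per kilobase, scaled by library depth), and library totals ranged between 329777 and 340328 FPKM. All 8 epithelial marker genes averaged at least 1 FPKM, led by KRT5, with a mean of 415 FPKM. None of 8 leukocyte and none of 5 endothelial markers did, and PTPRC, CD3E, MS4A1, AIF1 and PECAM1 were at 0 in every library. Of 6 fibroblast markers COL1A1 and PDGFRB averaged over 1 FPKM, while DCN and LUM were at 0 throughout. No library pair held identical values. Whether replicate libraries stem from separate cultures is not stated, so p-values reflect only how far these libraries differ from each other, possibly for technical reasons. In bulk RNA, fewer cells of a type and less RNA per cell cannot be told apart.

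All 9 genes were expressed, at levels that differed by more than an order of magnitude. Under HDM, IFNGR1 was the most abundant and JAK2 the least in both siRNA groups. With LY96 siRNA and HDM, IFNGR1 averaged 51.0 FPKM, above the range of every other member. IFNGR2 (27.1 FPKM), STAT2 (26.9 FPKM), IRF9 (26.0 FPKM), TYK2 (25.1 FPKM) and JAK1 (23.3 FPKM) followed, and the ranges of neighbours in that order overlapped. IFNAR1 (11.8 FPKM) and IFNAR2 (11.5 FPKM) overlapped each other below them, and JAK2 stood last at 2.55 FPKM. With control siRNA and HDM, STAT2 at 32.2 FPKM separated from IRF9 at 28.3 FPKM, and the only overlapping neighbours were IRF9 with IFNGR2 and IFNAR2 with IFNAR1. In both PBS libraries STAT2 was the highest member, at 27.3 FPKM with LY96 siRNA and 34.6 FPKM with control siRNA, while IFNGR1 ranked below STAT2, IRF9 and JAK1 with LY96 siRNA and below TYK2 and IFNGR2 too with control siRNA. Averaged over the 8 libraries, IFNGR1 exceeded 88.0% of the 12604 genes averaging 1 FPKM or more, the 2 type I receptor chains 54.6% (IFNAR1) and 53.4% (IFNAR2), and JAK2 12.9%. The ratio of the highest to the lowest library was 2.37 for IFNGR1, 1.46 for JAK2 and between 1.16 (TYK2) and 1.37 (IFNAR2) for the other members.

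**Figure D1:**
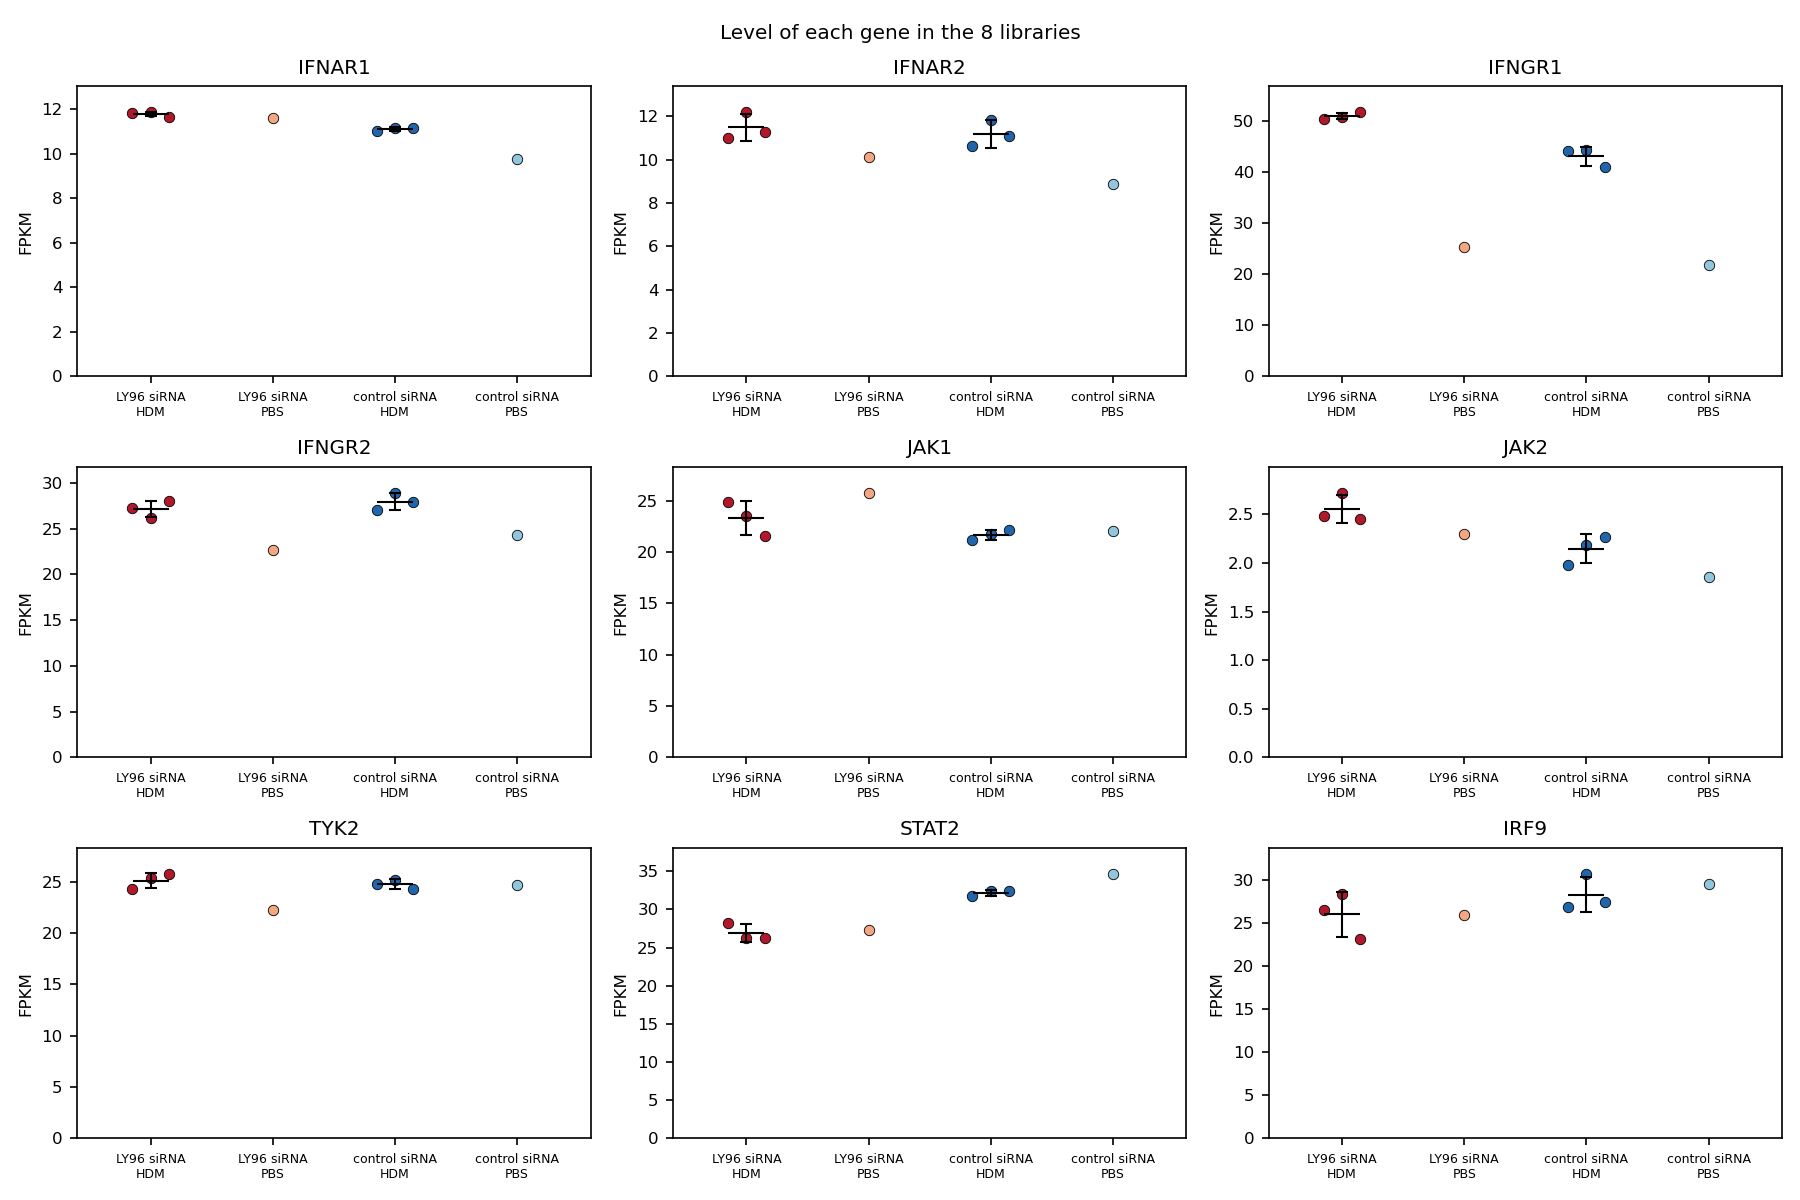
FPKM (y axis, from 0, a separate scale for each gene) of the 9 genes in each library, by group (x axis); points are libraries, and the horizontal mark and bar are the mean and SD of 3 libraries. IFNGR1 lies between 40.9 and 51.7 FPKM in the 6 HDM libraries and at 25.3 and 21.8 FPKM in the LY96 siRNA and control siRNA PBS libraries, while STAT2 is lower in the 3 LY96 siRNA HDM libraries than in the 3 control siRNA HDM libraries.

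HDM stimulation went with higher transcript levels of receptor chains, and chiefly of IFNGR1, which was about doubled with either siRNA. Averaged over both siRNAs, 3 of the 9 genes were higher under HDM and none lower, by limma on log2(FPKM + 1) with Benjamini-Hochberg adjustment over all genes and a threshold of 0.05: IFNGR1, IFNGR2 and IFNAR2. Of the 12604 genes tested, 8.36% passed the same test, 4.86% as higher and 3.50% as lower. In 5 of the 9 (IFNAR1, IFNAR2, IFNGR1, IFNGR2 and JAK2), every HDM library was above the PBS library of the same siRNA. That held for 16.0% of all genes, and the opposite order for 12.9% of all genes and none of the 9. With 1 PBS library per siRNA, the spread of PBS cultures was not measured, and the fits assume that they vary like the HDM libraries. Fold changes on this scale understate the change of low genes such as JAK2.

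IFNGR1, the ligand-binding chain of the interferon-gamma receptor, lies on the minus strand at chr6:137197484-137219449 (GRCh38, GENCODE v29). It measured 50.5, 50.8 and 51.7 FPKM with LY96 siRNA under HDM, against 25.3 FPKM with LY96 siRNA under PBS. With control siRNA it measured 44.2, 44.3 and 40.9 FPKM under HDM, against 21.8 FPKM under PBS. All HDM libraries stood far above both PBS libraries, and the ratio of mean FPKM was 2.01 with LY96 siRNA and 1.97 with control siRNA. The log2 difference over both siRNAs was 0.96 (SE 0.04, 95% interval 0.877 to 1.05, adjusted p = 1.34e-06). Within each siRNA it was 0.98 (adjusted p = 1.75e-05) with LY96 siRNA and 0.95 (adjusted p = 4.23e-05) with control siRNA. The difference between these responses was 0.03 (95% interval -0.142 to 0.207, adjusted p = 0.948).

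IFNGR2, the signalling chain of the same receptor, lies at chr21:33402896-33479348 on the plus strand. It measured 27.3, 26.2 and 28.0 FPKM with LY96 siRNA under HDM, against 22.7 FPKM under PBS. Control siRNA gave 27.1, 28.9 and 27.9 FPKM under HDM, against 24.3 FPKM under PBS. Every HDM library exceeded its PBS library, at ratios of 1.20 with LY96 siRNA and 1.15 with control siRNA. The log2 difference over both siRNAs was 0.22 (SE 0.04, adjusted p = 0.00955). IFNGR2 passed within LY96 siRNA (log2 0.25, adjusted p = 0.0390), and not within control siRNA (log2 0.19, adjusted p = 0.136). The call within LY96 siRNA was lost in 8 of 13 alternatives, among them leaving out LY96 siRNA HDM library 1 (adjusted p = 0.0767) or 3 (0.0885) or control siRNA HDM library 2 (0.0564) or 3 (0.0650). The difference between these responses was 0.06 (adjusted p = 0.899). IFNGR2 shares 380 exon bases with TMEM50B on the opposite strand, and whether the counting used strand is not stated. TMEM50B had a log2 difference of -0.09 for HDM (adjusted p = 0.355).

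RefSeq windows of 250 bases before the RefSeq start (GRCh38.p14) were searched on both strands for 5 motifs. They were the ISRE core, a relaxed ISRE core GAANNGAAA, the GAS motif TTCNNNGAA, the AP-1 motif TGANTCA and the NF-kB motif. The ISRE core does not itself contain the relaxed core, so their matches were counted separately. The RefSeq and GENCODE starts differ, and where the GENCODE gene begins farther upstream the window runs into its span, by 64 bases for IFNGR1 and by all 250 for IFNGR2. The part upstream of both starts is shown for IFNGR1, because it was called for HDM and for the siRNA, at chr6:137219450-137219635, read 5′ to 3′ on the minus strand. Capitals would mark a motif match.
IFNGR1: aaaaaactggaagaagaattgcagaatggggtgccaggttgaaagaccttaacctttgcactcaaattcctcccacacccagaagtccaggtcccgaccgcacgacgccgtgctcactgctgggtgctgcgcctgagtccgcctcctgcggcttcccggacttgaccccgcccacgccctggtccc
No part of the IFNGR1 window matched any of the 5 motifs. The IFNGR2 window held 1 NF-kB match, GGAAAGTCCC, beginning 99 bases before the RefSeq start and thus inside the GENCODE gene. NF-kB matches occurred in 5.21% of 35116 such RefSeq windows. RefSeq windows were found for 8 of the 9 genes, without IFNAR2, and those of IFNAR1, JAK1, JAK2 and TYK2 also held none of the 5 motifs. A match describes the letters of a window and is not evidence of binding.

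IFNAR2, the high-affinity chain of the type I interferon receptor, lies at chr21:33229901-33265675 on the plus strand. It measured 11.0, 12.2 and 11.3 FPKM with LY96 siRNA under HDM, against 10.1 FPKM under PBS. Control siRNA gave 10.6, 11.9 and 11.1 FPKM under HDM, against 8.88 FPKM under PBS. All HDM libraries were above their PBS library. The log2 difference over both siRNAs was 0.23 (SE 0.05, 95% interval 0.110 to 0.358, adjusted p = 0.0328). The adjusted p was 0.0801 without the low-value filter and 0.0620 under plain moderation. It was 0.0504 without LY96 siRNA HDM library 3, 0.0586 without control siRNA HDM library 2 and 0.0577 without control siRNA HDM library 3. Neither siRNA alone passed, at log2 differences of 0.17 (adjusted p = 0.330) with LY96 siRNA and 0.30 (adjusted p = 0.0905) with control siRNA. Its GENCODE v29 exons share 2038 bases with AP000295.1 on the same strand and 1803 bases with IL10RB-DT on the opposite strand. Neither gene is in the deposited tables, and how reads over these bases were counted is not stated.

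IFNAR1, the other type I chain, lies at chr21:33324477-33359862 on the plus strand, in the same cluster as IFNAR2, IL10RB and IFNGR2. It measured 11.8, 11.9 and 11.7 FPKM with LY96 siRNA under HDM, against 11.6 FPKM under PBS. With control siRNA it measured 11.0, 11.2 and 11.2 FPKM under HDM, against 9.78 FPKM under PBS. The control siRNA PBS library was the lowest of the 8. The log2 difference for HDM was 0.10 over both siRNAs (SE 0.04, adjusted p = 0.180), 0.02 with LY96 siRNA (adjusted p = 0.904) and 0.17 with control siRNA (adjusted p = 0.164). The difference between the responses was -0.15 (95% interval -0.321 to 0.0238, adjusted p = 0.684). IL10RB, the shared chain of the interferon-lambda and IL-10 receptors, lies between IFNAR2 and IFNAR1 on the chromosome and had a log2 difference of 0.02 for HDM (adjusted p = 0.845).

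The summed fibroblast markers also moved with HDM, at 16.8 to 18.9 FPKM with LY96 siRNA and 15.9 to 16.9 FPKM with control siRNA under HDM, against 25.6 FPKM (LY96 siRNA) and 22.8 FPKM (control siRNA) under PBS. PDGFRB made up most of that sum, and DCN and LUM were at 0. Their part in the receptor differences was not tested.

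**Figure D2:**
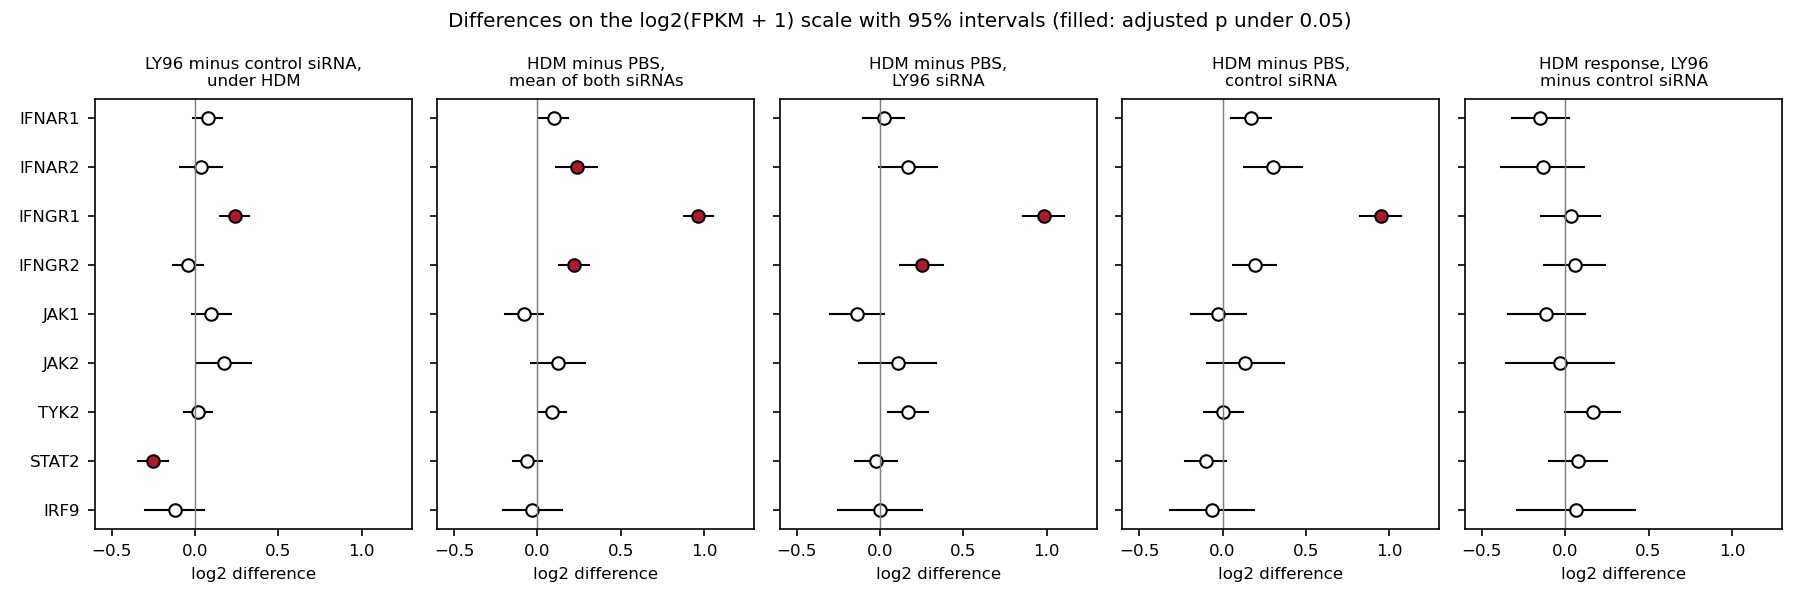
Log2 differences (x axis, log2(FPKM + 1) scale) of the 9 genes (y axis) in 5 comparisons, one panel each; lines are 95% intervals and filled points passed the adjusted p threshold. Filled points are IFNGR1 and STAT2 for the siRNA comparison, IFNAR2, IFNGR1 and IFNGR2 for HDM over both siRNAs, IFNGR1 and IFNGR2 with LY96 siRNA, IFNGR1 with control siRNA, and none for the difference in response.

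LY96 siRNA, compared with control siRNA under HDM, went with higher IFNGR1 and lower STAT2. These were 2 of the 9 genes, 1 in each direction, in a comparison where 15.6% of 12598 genes passed, 6.68% as higher and 8.92% as lower. The split of all calls depends on scaling: 42.8% of them were higher as deposited, 50.8% after quantile normalization and 54.9% after median-ratio scaling. IFNGR1 and STAT2 passed with the same sign under each. This comparison and those of HDM with PBS share the 6 HDM libraries. In 4 of the 9 genes the LY96 siRNA and control siRNA libraries did not overlap, with IFNAR1, IFNGR1 and JAK2 above and STAT2 below. Among all genes 37.0% did not overlap, 15.2% above and 21.8% below, so the share among the 9 is near that background.

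For IFNGR1 the mean was 51.0 ± 0.639 FPKM with LY96 siRNA and 43.1 ± 1.90 FPKM with control siRNA under HDM (SD, n = 3 each). The lowest LY96 siRNA library stood above the highest control siRNA library. The log2 difference was 0.24 (SE 0.04, 95% interval 0.152 to 0.324, adjusted p = 0.00482), with adjusted p between 0.00168 and 0.0209 over the alternatives. The 2 PBS libraries, compared here as values only, were in the same order, and the ratio of LY96 siRNA to control siRNA was 1.18 under HDM and 1.16 under PBS. The other receptor chains did not pass. IFNAR1 averaged 11.8 ± 0.104 FPKM with LY96 siRNA and 11.1 ± 0.0840 FPKM with control siRNA (log2 0.08, adjusted p = 0.209), IFNAR2 11.5 ± 0.615 and 11.2 ± 0.628 FPKM in the same order (log2 0.04, adjusted p = 0.694), and IFNGR2 27.1 ± 0.913 and 28.0 ± 0.892 FPKM (log2 -0.04, adjusted p = 0.519).

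Within each library, the balance of the receptor chains moved with IFNGR1. The IFNGR1/IFNGR2 ratio was 1.85, 1.94 and 1.85 with LY96 siRNA under HDM, 1.12 with LY96 siRNA under PBS, 1.63, 1.53 and 1.47 with control siRNA under HDM, and 0.898 with control siRNA under PBS. Thus IFNGR2 exceeded IFNGR1 in the control siRNA PBS library and in no other. Between the siRNAs under HDM the groups did not overlap (1.88 ± 0.0536 and 1.54 ± 0.0837, SD, n = 3 each), and the exact two-sided permutation p of 0.10 is the smallest that 3 against 3 allows. Adjusted over the 6 ratios tested it was 0.60. The IFNAR2/IFNAR1 ratio stayed near parity, at 0.975 ± 0.0489 with LY96 siRNA under HDM and 0.873 under PBS, and at 1.00 ± 0.0510 with control siRNA under HDM and 0.908 under PBS.

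**Figure D3:**
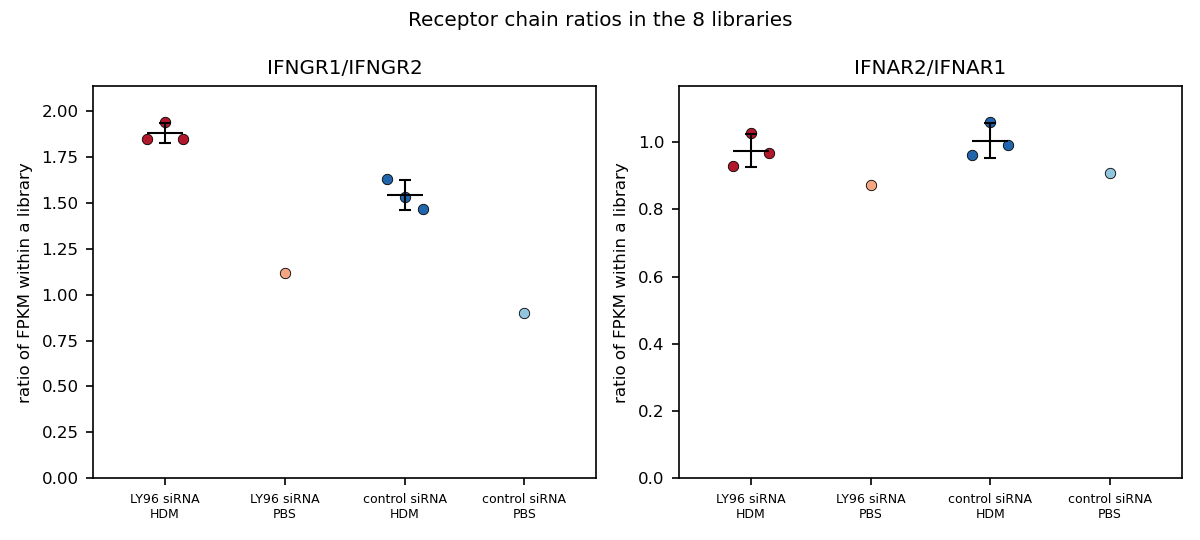
Ratio of FPKM of the receptor chains within a library (y axis, from 0), IFNGR1 over IFNGR2 on the left and IFNAR2 over IFNAR1 on the right, by group (x axis); points are libraries, and marks and bars are the mean and SD of 3 libraries. The interferon-gamma receptor ratio is 1.47 or more in all HDM libraries and 1.12 or less in both PBS libraries, while the type I ratio lies between 0.873 and 1.06.

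None of the 3 kinases passed in any of the 5 comparisons. JAK1, used by both receptors and encoded at chr1:64833229-64966504 on the minus strand, measured 24.9, 23.5 and 21.6 FPKM with LY96 siRNA under HDM and 25.7 FPKM under PBS. Control siRNA gave 21.2, 21.7 and 22.1 FPKM under HDM and 22.1 FPKM under PBS. The siRNA groups overlapped (log2 0.10, SE 0.05, adjusted p = 0.226), and the log2 difference for HDM over both siRNAs was -0.08 (adjusted p = 0.418).

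JAK2, the kinase of the IFNGR2 chain, lies at chr9:4984390-5128183 on the plus strand and was the least abundant member. It measured 2.48, 2.71 and 2.45 FPKM with LY96 siRNA under HDM and 2.30 FPKM under PBS. Control siRNA gave 1.98, 2.18 and 2.27 FPKM under HDM and 1.86 FPKM under PBS. The siRNA groups did not overlap under HDM, but the log2 difference of 0.18 (95% interval 0.0134 to 0.337, unadjusted p = 0.0368) did not pass after adjustment (adjusted p = 0.132). The JAK1/JAK2 ratio was 9.15 ± 0.740 with LY96 siRNA under HDM and 11.2 under PBS, and 10.1 ± 0.487 with control siRNA under HDM and 11.9 under PBS. JAK1 transcripts were thus several times as abundant as JAK2 transcripts in every library.

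TYK2, the kinase of IFNAR1, lies at chr19:10350529-10380676 on the minus strand and was the steadiest of the 9. It measured 24.3, 25.3 and 25.7 FPKM with LY96 siRNA under HDM and 22.2 FPKM under PBS. With control siRNA it measured 24.8, 25.2 and 24.3 FPKM under HDM and 24.7 FPKM under PBS. The siRNA difference under HDM was 0.02 (SE 0.04, 95% interval -0.0645 to 0.101, adjusted p = 0.774). The HDM difference was 0.17 with LY96 siRNA (adjusted p = 0.123) and 0.00 with control siRNA (adjusted p = 0.982), and the difference between them was 0.16 (unadjusted p = 0.0518, adjusted p = 0.659). That was the smallest unadjusted p of the 9 genes for the difference in response. None of the 9 passed there, none had an unadjusted p under 0.05, and limma called 0.0555% of all genes as higher and 0 as lower. Within LY96 siRNA 2 of the 9 were called for HDM, both higher, against 4.90% of all genes, 2.91% as higher and 1.98% as lower. Within control siRNA 1 of the 9 was called, as higher, against 2.28% of all genes, 1.55% as higher and 0.738% as lower.

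Of the 2 ISGF3 subunits counted here, STAT2 was lower with LY96 siRNA and IRF9 did not pass the test. STAT2, encoded at chr12:56341597-56360155 on the minus strand, measured 28.2, 26.2 and 26.2 FPKM with LY96 siRNA under HDM and 27.3 FPKM under PBS. Control siRNA gave 31.7, 32.5 and 32.4 FPKM under HDM and 34.6 FPKM under PBS. Every LY96 siRNA library, PBS included, was below every control siRNA library. Under HDM the log2 difference was -0.25 (SE 0.04, 95% interval -0.339 to -0.164, adjusted p = 0.00391), with adjusted p between 0.000913 and 0.0203 over the alternatives. The ratio of LY96 siRNA to control siRNA was 0.835 under HDM and 0.790 for the 2 PBS libraries. HDM itself went with a log2 difference of -0.06 over both siRNAs (adjusted p = 0.412), and the difference in response was 0.08 (adjusted p = 0.845).

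IRF9, the subunit that recognises the ISRE, is encoded at chr14:24161053-24166565 on the plus strand. It measured 26.5, 28.3 and 23.2 FPKM with LY96 siRNA under HDM and 25.9 FPKM under PBS. Control siRNA gave 26.9, 30.7 and 27.4 FPKM under HDM and 29.6 FPKM under PBS. The groups overlapped, and the spread of the LY96 siRNA libraries (SD 2.62 FPKM) exceeded the difference of the means. The log2 difference was -0.12 between siRNAs under HDM (95% interval -0.296 to 0.0562, adjusted p = 0.324) and -0.03 for HDM over both siRNAs (adjusted p = 0.868). The interval of the siRNA difference includes both 0 and the value measured for STAT2. In GENCODE v29 IRF9 shares 1838 exon bases with AL136295.5 on the same strand. AL136295.5 is not among the genes of the deposited tables, and how reads over these bases were counted is not stated. The STAT2/IRF9 ratio was 1.04 ± 0.106 with LY96 siRNA and 1.14 ± 0.0704 with control siRNA under HDM.

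The sequence upstream of STAT2 is shown because it was the member called as lower with LY96 siRNA. Its RefSeq window runs into the GENCODE gene by 48 bases, and the part upstream of both starts is at chr12:56360156-56360357 on GRCh38.p14, read 5′ to 3′ on the minus strand.
STAT2: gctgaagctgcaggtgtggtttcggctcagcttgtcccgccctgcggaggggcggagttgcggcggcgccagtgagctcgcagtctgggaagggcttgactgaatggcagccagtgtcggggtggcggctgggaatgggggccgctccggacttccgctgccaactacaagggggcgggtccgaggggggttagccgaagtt
The STAT2 window held none of the 5 motifs. The IRF9 window lies inside the GENCODE gene over 212 of its 250 bases. There it held a GAS match, TTCTGGGAA, beginning 63 bases before the RefSeq start, and a relaxed ISRE match, GAACTGAAA, beginning 36 bases before it. Among all windows 6.57% held the GAS motif, 6.56% the relaxed ISRE core, 3.02% the ISRE core and 6.57% the AP-1 motif.

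Ribosomal RNA (RNA18S5 and RNA28S5) took 1.03% to 1.31% of the FPKM total in LY96 siRNA HDM libraries and 0.475% to 0.824% in control siRNA HDM libraries. It took 0.826% in the LY96 siRNA PBS library and 0.770% in the control siRNA PBS library. Summed epithelial markers were 1087 to 1137 FPKM with LY96 siRNA and 1187 to 1225 FPKM with control siRNA under HDM, and the PBS libraries stood in the opposite order, at 1203 FPKM with LY96 siRNA and 1163 FPKM with control siRNA. Single markers under HDM went both ways. KRT19 had 90.3 to 102 FPKM with LY96 siRNA and 142 to 156 FPKM with control siRNA, and CDH1 had 35.8 to 41.6 FPKM with LY96 siRNA and 27.0 to 28.1 FPKM with control siRNA. The part of either in the siRNA differences of IFNGR1, STAT2 and the target genes was not tested.

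Likeness of pattern was measured as the root-mean-square difference between 2 genes' log2(FPKM + 1) deviations from their own means over the 8 libraries, across 8897 genes averaging 5 FPKM or more. IFNGR1 was most like SLC18B1 (0.0765), NFKB2 (0.0788) and IKBKE (0.0932). IFNGR2 was most like LTBR (0.0347), COL4A1 (0.0356) and MICB (0.0359). IFNAR2 was most like RNF214 (0.0425), SRFBP1 (0.0493) and TAP2 (0.0503), and STAT2 was most like KRCC1 (0.0224) and SUSD6 (0.0277). Among the 9 themselves, taken without that minimum, the closest pair was IFNAR1 with JAK2 (0.0590) and the most distant IFNGR1 with STAT2 (0.513). JAK2 averaged 2.28 FPKM, a level at which the log2(FPKM + 1) scale understates changes. These distances describe 8 libraries that share 1 experiment, and a gene of small range is close to many others.

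Transcripts of the interferons themselves were near or at 0. Of 21 interferon genes, 13 were listed at 0 in all 8 libraries, IFNG among them, and only IFNE averaged at least 1 FPKM. IFNE, the epithelial type I interferon interferon-epsilon, measured 1.09, 1.04 and 1.03 FPKM with LY96 siRNA under HDM and 1.29 FPKM under PBS. Control siRNA gave 2.09, 1.46 and 1.58 FPKM under HDM and 2.11 FPKM under PBS. All LY96 siRNA libraries were below all control siRNA libraries, and under HDM the log2 difference was -0.39 (SE 0.10, adjusted p = 0.0312), a call lost without any 1 of 5 HDM libraries, all but control siRNA library 2 (adjusted p 0.0616 to 0.0815), and without the low-value filter (0.0603). For HDM the difference was -0.18 (adjusted p = 0.345). IFNA1, IFNA8, IFNA13, IFNA21, IFNB1, IFNK and IFNW1 had some value above 0, none over 0.327 FPKM, and values of the near-identical IFNA genes are uncertain.

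Some other JAK-coupled receptor chains were called in both comparisons. Of 17 listed, 14 were tested. Counts in this list and those below stand beside the shares over all genes tested. For HDM over both siRNAs, 4.86% were called higher and 3.50% lower. For the siRNA under HDM, 6.68% were called higher and 8.92% lower. Under HDM 3 were higher and none lower: IL27RA, the IL-27 receptor chain (log2 0.62, adjusted p = 0.00158), OSMR, the oncostatin M receptor (0.47, adjusted p = 1.32e-04), and IL4R, the IL-4 and IL-13 receptor chain (0.40, adjusted p = 0.00169). With LY96 siRNA 3 were higher and 1 lower under HDM. The higher ones were IL15RA, which presents IL-15 (log2 0.59, adjusted p = 8.26e-04), IL6ST, the gp130 chain shared by IL-6-type cytokines (0.40, adjusted p = 4.30e-04), and IL11RA, the IL-11 receptor (0.32, adjusted p = 0.0181). The IL11RA call was lost without LY96 siRNA HDM library 2 (adjusted p = 0.0585) or 3 (0.0562) and without control siRNA HDM library 3 (0.0543). The lower one was IL13RA1, the IL-13 receptor chain (-0.24, adjusted p = 0.00671). The median log2 difference of the list was 0.04 for HDM and 0.00 for the siRNA, against 0.01 and -0.02 over all genes tested. IL6ST was the most abundant, at 57.3 ± 2.12 FPKM with LY96 siRNA and 43.0 ± 1.28 FPKM with control siRNA under HDM.

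Among other JAK, STAT and IRF genes, 11 of 13 were tested. Under HDM, IRF1, an interferon-gamma-induced transcription factor (log2 0.50, adjusted p = 5.01e-04), and STAT3, the main STAT of IL-6-type cytokines (0.32, adjusted p = 4.75e-04), were higher and none was lower. With LY96 siRNA, STAT5B (0.26, adjusted p = 0.0103) and IRF2, an antagonist of IRF1 (0.16, adjusted p = 0.0388), were higher. The IRF2 call was lost without any 1 HDM library other than control siRNA library 3 (adjusted p 0.0636 to 0.110). The list's medians were 0.07 for HDM and 0.04 for the siRNA.

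Feedback and inhibitory genes were tested for 12 of 14. Under HDM, SOCS3, which blocks gp130 signalling (log2 0.46, adjusted p = 2.60e-04), the phosphatase PTPN2 (0.30, adjusted p = 0.0126) and the adaptor SH2B3, an inhibitor of JAK2 (0.28, adjusted p = 0.0109), were higher and none was lower. The PTPN2 call was lost without the low-value filter (adjusted p = 0.0561). With LY96 siRNA, SOCS3 (0.41, adjusted p = 6.42e-04) and SH2B3 (0.27, adjusted p = 0.00920) were higher. USP18, which binds IFNAR2 and dampens its signal (-0.28, adjusted p = 0.0225), and PIAS4, a SUMO ligase that inhibits STATs (-0.19, adjusted p = 0.0392), were lower. The USP18 call was lost without LY96 siRNA HDM library 2 (adjusted p = 0.0600) or 3 (0.0651) or control siRNA HDM library 1 (0.0703) or 2 (0.0741), and that of PIAS4 without any 1 HDM library other than LY96 siRNA library 2 (0.0763 to 0.108). Medians were 0.07 for HDM and -0.04 for the siRNA. SOCS3 measured 10.2, 10.4 and 10.7 FPKM with LY96 siRNA under HDM and 6.22 FPKM under PBS, and 7.65, 7.67 and 7.47 FPKM with control siRNA under HDM and 6.15 FPKM under PBS. The 2 PBS libraries were thus close for SOCS3 while the HDM groups did not overlap. Neither SOCS3 nor any other gene of this list was called for the difference in HDM response, which rests on 1 PBS library per siRNA. SOCS1 averaged under 1 FPKM and was not tested.

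Target genes of the pathway's branches are given as a reference for the members. All 42 ISGF3 target genes were tested, and with LY96 siRNA under HDM 20 were lower and none higher, with a median log2 difference of -0.26. The lowest were IFI27, a mitochondrial interferon-induced protein (-1.70, adjusted p = 5.33e-04), the nucleotide kinase CMPK2 (-0.86, adjusted p = 0.00302), the antiviral GTPase MX1 (-0.62, adjusted p = 0.0395) and the ISG15 ligase HERC5 (-0.61, adjusted p = 0.00561). In the PBS libraries, compared as values only, these 4 were also lower with LY96 siRNA. Their PBS ratios of LY96 siRNA to control siRNA were 0.311 (IFI27), 0.36 (CMPK2), 0.765 (MX1) and 0.664 (HERC5). The MX1 call was lost without any 1 HDM library other than LY96 siRNA library 1 (adjusted p 0.0564 to 0.126). For HDM 4 of the 42 were higher and none lower, with a median of 0.05: the ubiquitin ligase TRIM22 (0.32, adjusted p = 0.00252), the exonuclease ISG20 (0.27, adjusted p = 0.0261), the ISG15-conjugating enzyme UBE2L6 (0.24, adjusted p = 0.0175) and the virion tether BST2 (0.20, adjusted p = 0.00894). The ISG20 call was lost without LY96 siRNA HDM library 1 (adjusted p = 0.0516) or control siRNA HDM library 2 (0.0563) or 3 (0.0527). Without the low-value filter, the calls of ISG20 (adjusted p = 0.0630) and UBE2L6 (0.0654) were lost. Plain moderation also lost that of UBE2L6 (adjusted p = 0.0582). Of 17 interferon-gamma (GAS) target genes 12 were tested, and 9 were higher under HDM and none lower, with a median of 0.35. They were led by ICAM1, a leukocyte adhesion ligand (log2 1.13, adjusted p = 6.29e-07), the chemokine CXCL10 (0.94, adjusted p = 0.00413), the guanylate-binding protein GBP2 (0.64, adjusted p = 2.17e-04) and IRF1. ICAM1 and IRF1 are known to respond to NF-kB as well. With LY96 siRNA under HDM, GBP1 (-0.33, adjusted p = 0.00428) and HLA-E (-0.22, adjusted p = 0.00341) were lower and none was higher, with a median of -0.02. In none of the 6 lists was a gene called for the difference in HDM response. The lists were chosen with earlier results of these libraries known, and their directions are descriptions.

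**Figure D4:**
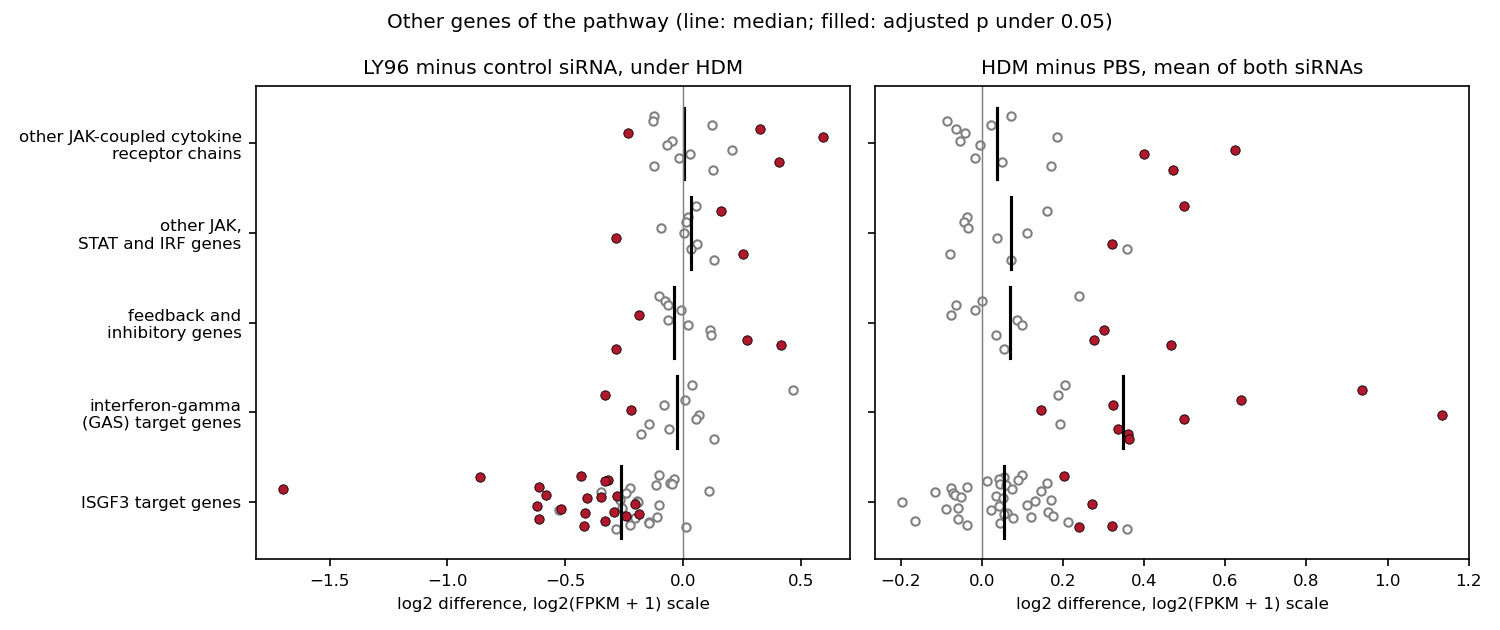
Log2 difference (x axis, log2(FPKM + 1) scale) of each tested gene of 5 lists (y axis), for the siRNA comparison under HDM on the left and HDM over both siRNAs on the right; black lines are list medians and filled points passed the adjusted p threshold. ISGF3 targets lie mostly below 0 for the siRNA comparison (median -0.26), and all 12 tested interferon-gamma targets lie above 0 for HDM (median 0.35).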

How the data were processed

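RNA of 8 libraries was measured by sequencing, and the deposited tables hold 1 value for each of 26485 genes. Per the submitters' processing notes, alignment was to hg38 with HISAT2 2.2.0. Neither a quantifier nor an annotation is stated there. The authors deposited values with no named unit, which were read as FPKM because they are not whole numbers, library totals differ and low values show no steps of whole reads; depth is therefore unknown. An exact 0 can be a failed estimate.

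Samples were grouped by title. Tests used limma 3.58.1 in R 4.3.3 on log2(FPKM + 1), moderated robustly along a mean-variance trend, for genes averaging 1 FPKM or more in the fitted libraries, two-sided, with Benjamini-Hochberg adjustment over all genes tested and a threshold of 0.05. The siRNA comparison used the 6 HDM libraries. The HDM comparisons and the difference in response were contrasts of 4 group means in all 8 libraries. Both models left 4 residual degrees of freedom. Ratios named as such are of mean FPKM, or of FPKM within a library, and ratios within a library were tested on log2 values by an exact permutation test. The scripts were tested on simulated data. The 9 genes are named with all values. From each pathway list up to 4 called genes with the largest change are named, with any interferon gene above 0, and for each called member the 3 genes most like it; some genes that meet this rule are not reported here. The members and lists were chosen with earlier results of these data known. Alternatives were other pseudocounts (0.1 and 0.5), no filter or a filter at 5 FPKM, quantile normalization, median-ratio scaling, plain moderation, an additive model, a replicate block and leaving out each HDM library. PBS libraries were not left out, since each is the only one of its group. Gene positions are from GENCODE v29 on GRCh38, and sequences from RefSeq.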

Additional observations from a re-analysis of the deposited data

How the results depend on the processing

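Of 607 recomputed values for the 9 genes in 5 comparisons, 586 kept their direction and side of the threshold, 13 lost their call and 8 changed sign. The calls of IFNGR1 in the siRNA and HDM comparisons, of STAT2 for the siRNA and of IFNGR2 for HDM over both siRNAs passed under every alternative that was run. The lost calls were IFNAR2 for HDM over both siRNAs (5) and IFNGR2 for HDM with LY96 siRNA (8), where 1 of the 9 genes remained called without the filter, under quantile normalization, median-ratio scaling and plain moderation, and 1 to 2 with 1 library left out. The values that changed sign had not passed. TYK2 for the siRNA was -0.02 (-0.0229) in the additive model. TYK2 for HDM with control siRNA was -0.000828 under quantile normalization, -0.00293 under median-ratio scaling and -0.00817 to 0.0169 with 1 library left out. With 1 library left out, IFNAR2 for the siRNA ranged between -0.00322 and 0.0755, IRF9 for HDM between -0.0624 and 0.00759 over both siRNAs and between -0.0621 and 0.0779 with LY96 siRNA, and IFNGR1 for the difference in response between -0.00380 and 0.0511. Over all genes, the siRNA comparison called 1966 genes, and 1119 to 1369 with 1 library left out (1119 without control siRNA HDM library 2, 1243 without library 3). HDM with control siRNA called 288, 180 under plain moderation and 187 to 329 with 1 library left out (187 without control siRNA HDM library 2). The difference in response called 7, against 20 without the filter, 15 with the filter at 5 FPKM, 14 under quantile normalization, 0 under plain moderation and 0 to 33 with 1 library left out; the cause was not tested, and 956 genes had an unadjusted p under 0.05. Of 33 results for pathway genes chosen by the naming rule, 23 kept their call under every alternative, 46 of 475 recomputed values lost it and none changed sign. Same-numbered HDM libraries of the siRNA groups showed little shared deviation (r = 0.0485, -0.0165 and -0.0162 across genes). Such values cannot show whether these libraries were set up together, which the labels do not state. With a replicate block 1635 genes were called, 716 higher and 919 lower, and 2 of the 9. JAK2 has no value under the filter at 5 FPKM. Depth is unknown, and the single PBS libraries limit every HDM comparison.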
